A study of Rattus norvegicus with 12 samples.

Results

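Cytosolic heat shock proteins and their cochaperones were followed in the rat forebrain through 10 genes, namely Hsf1, Hspa1a, Hspa8, Hsph1, Bag3, Dnajb1, Dnajb5, Hsp90aa1, Hspb1 and Cryab. A probe set, the group of probes on the array that reads a transcript, was taken for a gene when the platform annotation gave it that symbol and no other. By this rule 12 of 31042 probe sets were found, and they covered 8 of the 10 genes. The probe set annotated to Hspa8 and both annotated to Hsp90aa1 also carry the symbol of another gene, so no value is given for these genes. The same holds for a further probe set that carries the symbol of Hspa1a beside another.

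The exposed group was 6 male Long Evans rats that spent 3 hours among objects of varied shapes and colours in a setting new to them. The control group was 6 male Long Evans rats that stayed in a standard laboratory cage. All animals were 6 weeks old and had been housed alone for several days, and no transgene or drug is named in the labels. Total forebrain RNA of each animal was measured on 1 Affymetrix array, and values are the deposited linear intensities in arbitrary units.

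Heat shock proteins are chaperones, which bind unfolded or misfolded proteins and help them to refold, to be taken apart or to be degraded. In the cytosol the Hsp70 proteins do most of this work in a cycle driven by ATP. Hsp40 (DnaJ) proteins deliver the client and start ATP hydrolysis, and nucleotide exchange factors such as Hsp110 and BAG proteins release the client again. Small heat shock proteins hold unfolded clients without using ATP, and Hsp90 acts late in folding on kinases and steroid hormone receptors. The transcription factor Hsf1 is held inactive by chaperones and, once released, binds heat shock elements in the promoters of many of these genes. In brain, neurons are known for high constitutive levels of Hsp70 family proteins, and Cryab is best known from glia and from the lens.

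Most of the 8 heat shock and cochaperone genes measured were higher in the forebrain of the exposed group. At an adjusted p under 0.05 in limma, 9 of the 12 probe sets rose and 0 fell, where 1.97% of all 31042 probe sets rose. With the brightest probe set per gene, 7 of 8 genes rose (Hspb1, Dnajb5, Hspa1a, Bag3, Cryab, Dnajb1 and Hsph1), where 2.62% of 14217 genes rose. Increases ran from 1.15-fold for Hsph1 to 1.83-fold for Hspb1, and the median log2 change of the 8 genes was 0.41, against 0.00 over all genes. All 12 log2 changes, which come from 8 genes, were above 0, as were those of 7426 of the 14217 genes. In each of the 9 probe sets that rose, every animal of the exposed group lay above every control animal, as did 1.98% of all probe sets. The members were chosen with earlier results of these data known. Their shares beside those of all probe sets and genes are thus a description and not a test. Without control animal 4 and exposed animals 3 and 5 together, 9 probe sets and 6 genes rose.

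**Figure D1:**
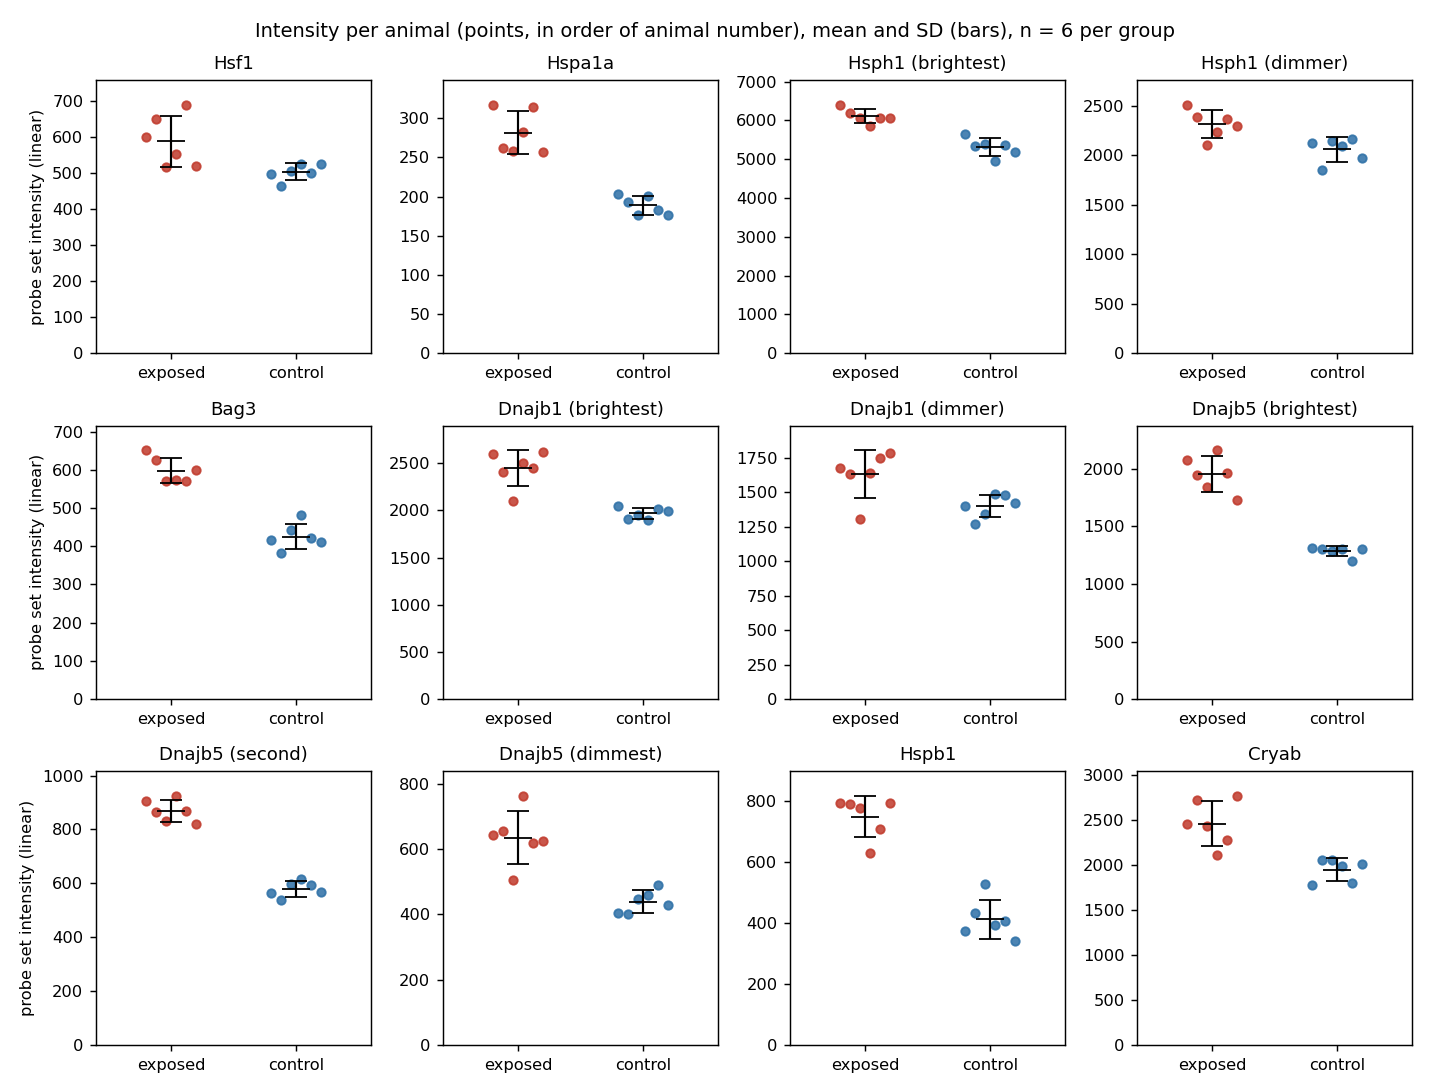
Linear intensity of each of the 12 probe sets in each animal, with the exposed group on the left and the control group on the right of each panel. Points are animals in order of their number and bars are the mean and SD of 6 animals. The groups do not overlap in 9 panels, and they overlap in those of Hsf1, the dimmer Hsph1 and the dimmer Dnajb1 probe set.

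Signs of the tissue and of RNA quality were checked first. Of the 9 forebrain markers measured, of 12 listed, 0 passed in limma. At an unadjusted p under 0.05, 4 were lower (Rgs9, Adora2a, Emx1 and Tbr1), or 44.4%, against 7.1% of all genes. The median log2 change of the 9 was -0.10, and 3 of the 9 changes were above 0. In Rgs9 every exposed animal lay below every control (adjusted p = 0.0527). The summed intensity of the 9 was 14711 to 16772 in the exposed group and 15075 to 16249.7 in the control group. Penk had the largest part in this sum, with a log2 change of 0.12 ± 0.06. Whether dissection differed between the groups was not tested. Of 8 listed markers of regions outside the forebrain, 3 were measured. Slc6a5 (49.4 in the exposed group, 49.7 in the control group) and Gabra6 (39.0 and 35.7) averaged below the floor of 53.8 set for dim values. Each was at or below the floor on 9 of 12 arrays and above it on the others. The SD of Gabra6 was 31.8 in the exposed group and 42.2 in the control group. Hoxb4 averaged 180.4 and 175.9. The 3 prime minus 5 prime log2 difference of control probe sets for Gapdh and beta-actin, which grows as RNA degrades, was 0.45 ± 0.07 in the exposed group and 0.39 ± 0.05 in the control group (SD, n = 6 each). Its highest value, 0.59, was that of exposed animal 3. In bulk tissue, more cells of a type and more RNA per cell cannot be told apart.

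Hsf1, the regulator of the group, was the 1 gene of the 8 that did not pass. Hsf1 had a lowest, median and highest intensity of 519, 577 and 690.5 in the exposed group, against 463, 504 and 527 in the control group. Exposed animals 1, 2, 4 and 5 lay above every control, and animals 3 and 6 lay within the control range. The log2 change was 0.22 ± 0.07 (SE), with a 95% interval of 0.06 to 0.38 and an adjusted p of 0.185 in limma. The SD among animals on the log2 scale was 0.17 in the exposed group and 0.07 in the control group. The activity of Hsf1 is known to be set mainly after translation, by trimer formation and phosphorylation, which an array does not read.

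Hspa1a, the stress-inducible cytosolic Hsp70, was 257, 272 and 317 (lowest, median and highest) in the exposed group, against 176, 188 and 204 in the control group. The lowest exposed animal was thus above the highest control. The increase was 1.49-fold, or 0.57 ± 0.07 on the log2 scale (adjusted p = 0.00113). Its near-identical neighbour Hspa1b has no probe set of its own here, so transcripts of both copies may enter this value.

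Both exchange factors of Hsp70 rose at their brightest probe set. Bag3, which couples Hsp70 and small heat shock proteins to autophagy, was 569.6, 586 and 651 in the exposed group, against 381, 418 and 481 in the control group. The groups were well apart, and the increase was 1.41-fold (log2 change 0.49 ± 0.05, adjusted p = 0.000745). Hsph1, an Hsp110 protein, was 5845, 6069.7 and 6408 at its brightest probe set in the exposed group, against 4951, 5349 and 5651 in the control group. This was the smallest change that passed among the 8 genes, 1.15-fold, but also the one with the smallest standard error (log2 change 0.20 ± 0.03, adjusted p = 0.00525). The dimmer Hsph1 probe set was 2108, 2329 and 2512 in the exposed group, against 1851, 2109.8 and 2168 in the control group. There 5 of 6 animals lay above all controls and the change of 0.17 ± 0.05 did not pass (adjusted p = 0.116). Its change differed from that of the brightest Hsph1 probe set by -0.03, with a 95% interval of -0.14 to 0.08 (adjusted p = 0.883).

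Both Hsp40 genes rose. Dnajb5, an Hsp40 that is abundant in brain, has 3 probe sets. The brightest was 1730.05, 1957 and 2160 in the exposed group, against 1197, 1303 and 1316 in the control group. The second was 821, 867 and 923 in the exposed group, against 537, 581 and 617 in the control group. The dimmest was 505, 635 and 762 in the exposed group, against 401, 438 and 491 in the control group. All 3 put the 6 exposed animals above the 6 controls. Their log2 changes were 0.60 ± 0.05 (adjusted p = 0.000104), 0.58 ± 0.04 (adjusted p = 2.55e-05) and 0.53 ± 0.09 (adjusted p = 0.00906), the second ranking 17 by p among all probe sets. The changes of the second and the dimmest differed from that of the brightest by -0.02 (95% interval -0.12 to 0.09) and -0.07 (-0.26 to 0.11).

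Dnajb1, the classic stress-inducible Hsp40 and a partner of Hspa1a, has 2 probe sets. Its brightest probe set was 2102, 2474 and 2622 in the exposed group, against 1899, 1969.96 and 2049 in the control group. The groups did not overlap, and the change was 1.24-fold (log2 0.31 ± 0.05, adjusted p = 0.00626). The dimmer Dnajb1 probe set was 1304, 1659 and 1789.65 in the exposed group, against 1270.03, 1412 and 1488 in the control group. Exposed animal 3 was the lowest of its group at both probe sets and fell within the control range at the dimmer one. Its change of 0.22 ± 0.07 did not pass (adjusted p = 0.19), whereas without exposed animal 3 it was 0.28 ± 0.04 (adjusted p = 0.00951). With the 3 prime minus 5 prime difference as a covariate it was 0.33 ± 0.04 (adjusted p = 0.00439). Of 26 alternatives this probe set passed in 4, these among them, and did not pass in 22. The cause was not tested. The changes of the dimmer and the brightest Dnajb1 probe set differed by -0.10, with a 95% interval of -0.19 to 7e-04 (adjusted p = 0.526).

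Of the 6609 dimmer probe sets on the array that were compared in this way with the brightest of their gene, 0.908% moved apart from it. Of the 4 comparisons within Hsph1, Dnajb1 and Dnajb5 0 passed in limma, adjusted or not, and all 4 differences were below 0 for the dimmer probe set.

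**Figure D2:**
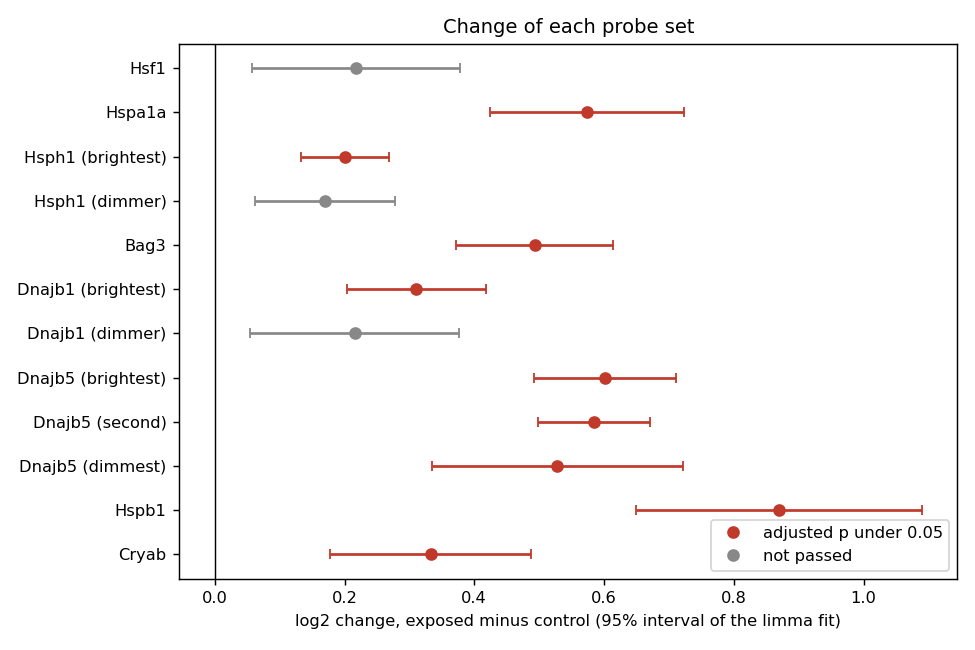
Log2 change, exposed minus control, of each of the 12 probe sets with its 95% interval. Red points passed at an adjusted p under 0.05 and grey points did not. Hspb1 lies farthest to the right at 0.87, the 3 Dnajb5 probe sets lie between 0.53 and 0.60, and all 12 changes are above 0.

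Among small heat shock proteins, Hspb1, which binds unfolding proteins and actin, had the largest increase of the 8 genes and ranked 41 in increase among all probe sets. It was 630.3, 784 and 795 in the exposed group, against 341, 401 and 528 in the control group. The increase was 1.83-fold (log2 change 0.87 ± 0.10, adjusted p = 0.000964), with a 95% interval of 1.57-fold to 2.13-fold. Control animals were more spread than for any other of the 12 probe sets, with an SD of 0.21 on the log2 scale, control 3 being the highest and control 6 the lowest. Exposed animals 1, 2, 3 and 6 lay close together, between 778 and 795.

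Cryab, alpha B crystallin, was 2104, 2439 and 2759.9 in the exposed group, against 1770.2, 1996 and 2054 in the control group. The groups did not overlap and the increase was 1.26-fold (log2 change 0.33 ± 0.07, adjusted p = 0.032). This call was the least stable of the 7: it was lost in 13 of 26 alternatives. The adjusted p was 0.112 with the RNA quality covariate, 0.0604 with oligodendrocyte markers as a covariate and 0.0703 with the animal number as a block. It was 0.118 without control 4 and exposed animals 3 and 5 together. It was also above 0.05 without control 1 (0.068), 3 (0.0524), 4 (0.0592), 5 (0.0737) or 6 (0.0576), and without exposed animal 1 (0.0705), 2 (0.0656), 3 (0.057) or 6 (0.0528). The log2 change stayed between 0.30 and 0.38 in all 26.

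Cryab is strongly expressed by oligodendrocytes, and Hspb1 is also made by astrocytes and vessel cells, so markers of these cells stand beside them. Of 11 oligodendrocyte markers measured, of 12 listed, 0 passed in limma and 2 were lower at an unadjusted p under 0.05, where 7.1% of all genes were. Their summed intensity was 75169.6 to 79696 in the exposed group and 74741 to 80929 in the control group. Of 9 astrocyte markers 0 passed in limma, adjusted or not, with sums of 63585 to 69097 in the exposed group and 65069 to 69723 in the control group. Of 9 endothelial and mural markers measured, of 10 listed, 1 was lower, Slco1a4 (log2 change -0.29, adjusted p = 0.00364), and 0 were higher. Of all 14217 genes 120 were lower at an adjusted p under 0.05. At an unadjusted p under 0.05, 3 of the 9 were lower, Slco1a4, Pdgfrb and Rgs5 (33.3%, against 7.1% of all genes). All 9 changes were below 0, where 7426 of the 14217 genes had a change above 0. Their sums were 7149.8 to 7753 in the exposed group and 7706 to 8462 in the control group, ranges that overlapped between 7706 and 7753. With the oligodendrocyte markers as a covariate the change of Cryab was 0.35 ± 0.08. The part of vessel and astrocyte markers in the change of Hspb1 was not tested.

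The members were also compared animal by animal within the groups. Over 28 pairs of the 8 genes, Pearson's r between the deviations of 12 animals from their group means ran from -0.47 to 0.57 with a median of 0.15. The highest was that of Hspb1 with Cryab, r = 0.57 (permutation p = 0.0387, 0.926 after Benjamini-Hochberg over the 28 pairs) and Spearman's rho = 0.64 (permutation p = 0.0301, 0.421 adjusted). Without the 2 animals whose deviations lay farthest from the median deviation of Hspb1, controls 3 and 6, r was 0.84. This choice rests on Hspb1 alone and not on Cryab. Exposed animal 4 was the lowest of its group in both small heat shock proteins and the highest in Dnajb5. Hspa1a with Dnajb5 followed, r = 0.57 (permutation p = 0.118, 0.926 adjusted) and rho = 0.73 (permutation p = 0.0233, 0.421 adjusted). Its r was 0.55 without the 2 animals whose deviations lay farthest from the median deviation of Hspa1a. No pair passed after adjustment.

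**Figure D3:**
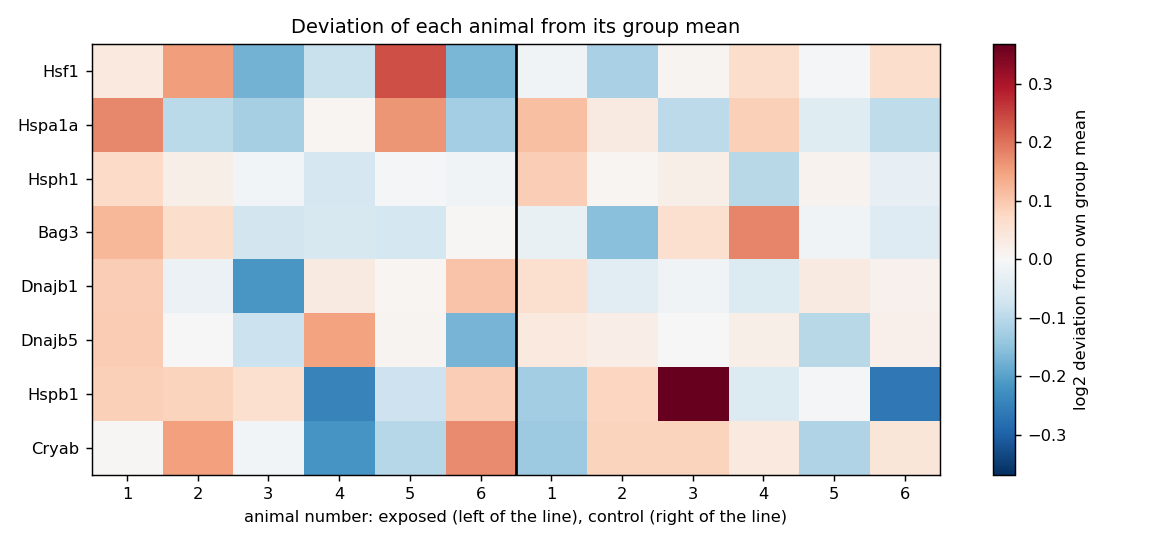
Log2 deviation of each animal from the mean of its own group for the brightest probe set of each of the 8 genes, with the 6 exposed animals left of the line and the 6 control animals right of it. Red is above and blue below the group mean. Exposed animal 4 is lowest of its group in Hspb1 and Cryab and highest in Dnajb5, and control animal 3 is high in Hspb1.

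Likeness to the members with the smallest p, Dnajb5 and Bag3, was taken as Pearson's r between deviations from the group means over 12 animals, among 12673 other genes. It is a description, since the highest of many values is picked. The 4 genes most like Dnajb5 were Itpk1 (r = 0.95, rho = 0.81), Lrch2 (r = 0.93, rho = 0.85), Dym (r = 0.86, rho = 0.72) and Stard13 (r = 0.86, rho = 0.77), and none of them passed between the groups. Those most like Bag3 were Noct (r = 0.90, rho = 0.90), Ptdss2 (r = 0.87, rho = 0.74), Adprhl1 (r = 0.87, rho = 0.77) and Dlx5 (r = 0.86, rho = 0.73). Of these, Noct, a phosphatase of NADP under circadian control, also rose (log2 change 0.37 ± 0.05, adjusted p = 0.00227).

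Promoters are shown for 5 members that rose, because heat shock elements are what Hsf1 binds. The RefSeq table, on build GRCr8, holds 7 of the 10 genes (Hspa1a, Hspa8, Hsph1, Bag3, Dnajb1, Dnajb5 and Hspb1). Hsf1, Hsp90aa1 and Cryab are not in it. Each sequence runs 5′ to 3′ on the strand of the gene, from 250 bases before the start of the gene to 50 bases after. Capitals mark each pair of inverted heat shock units, GAANNTTC or TTCNNGAA. Each of these reads the same on both strands, and they overlap where 3 units follow each other. Such a pair occurred in 5 of these 7 promoters and in 15.9% of all 33469 promoters of the same length. The 5 are those of Hsph1, Dnajb1, Hspb1, Bag3 and Hspa8, of which Hspa8 has no expression value here.
Hsph1, chr12:10427118-10427417, plus strand: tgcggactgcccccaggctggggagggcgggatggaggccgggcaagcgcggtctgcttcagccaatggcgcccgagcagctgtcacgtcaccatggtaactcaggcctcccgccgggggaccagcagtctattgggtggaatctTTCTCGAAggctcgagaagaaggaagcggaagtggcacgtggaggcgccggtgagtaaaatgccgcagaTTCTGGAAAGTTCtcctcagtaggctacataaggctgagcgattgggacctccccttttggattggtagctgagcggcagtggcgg
Dnajb1, chr19:41431092-41431391, minus strand: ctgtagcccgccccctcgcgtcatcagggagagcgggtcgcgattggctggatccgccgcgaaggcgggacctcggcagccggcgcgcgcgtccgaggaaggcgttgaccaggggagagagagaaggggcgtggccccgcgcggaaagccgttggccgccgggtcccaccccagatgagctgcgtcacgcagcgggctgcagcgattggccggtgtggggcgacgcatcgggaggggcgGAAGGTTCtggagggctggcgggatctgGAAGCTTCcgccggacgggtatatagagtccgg
Hspb1, chr12:26432252-26432551, minus strand: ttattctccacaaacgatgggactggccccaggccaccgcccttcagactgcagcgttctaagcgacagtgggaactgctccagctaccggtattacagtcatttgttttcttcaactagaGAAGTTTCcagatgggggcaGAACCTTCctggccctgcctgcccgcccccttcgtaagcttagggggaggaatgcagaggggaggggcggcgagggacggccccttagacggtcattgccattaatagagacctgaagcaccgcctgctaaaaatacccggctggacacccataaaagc
Bag3, chr1:192533210-192533509, plus strand: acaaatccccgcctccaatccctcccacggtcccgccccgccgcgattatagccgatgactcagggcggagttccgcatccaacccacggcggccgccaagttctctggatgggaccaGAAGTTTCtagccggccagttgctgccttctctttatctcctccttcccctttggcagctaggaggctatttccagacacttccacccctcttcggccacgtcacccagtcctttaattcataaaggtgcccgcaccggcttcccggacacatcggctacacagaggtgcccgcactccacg
Dnajb5, chr5:61972456-61972755, plus strand: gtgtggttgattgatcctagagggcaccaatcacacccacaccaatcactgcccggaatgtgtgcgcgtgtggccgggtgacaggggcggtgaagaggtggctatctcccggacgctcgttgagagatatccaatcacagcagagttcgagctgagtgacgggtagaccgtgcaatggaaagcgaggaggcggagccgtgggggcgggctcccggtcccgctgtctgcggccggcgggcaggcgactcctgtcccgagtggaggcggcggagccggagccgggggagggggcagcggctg

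Counted from 1 at the 5′ end of the window, the Hsph1 promoter held 3 units in a row (TTCNNGAANNTTC) at bases 215 to 227 and a pair at 146 to 153. In Hspa8, which has no value here, 3 units in a row lay at 38 to 50 and again at 196 to 208. A run of 3 units, GAANNTTCNNGAA or TTCNNGAANNTTC on either strand, occurred in 0.798% of all promoters. Dnajb1 held pairs at 240 to 247 and 268 to 275, Hspb1 at 122 to 129 and 142 to 149, and Bag3 at 119 to 126. In Hspa1a and Dnajb5, which both rose, no pair was found in this window. The sequence of Hspa1a is not shown. The window follows the annotated start of the gene. Other starts and bases outside the window were not searched, so a heat shock element there would be missed. The letters TGACG or CGTCA, the core of the cAMP response element that CREB binds, lay at bases 157 to 161 in Dnajb5 and were found in 5 of the 7 promoters and 21.2% of all. The full element, TGACGTCA, was in none of the 7 and in 1.83% of all.

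In the wider chaperone network most genes did not pass, but a larger share rose than among all genes. Of 95 further chaperone genes measured, 7 rose and 0 fell in limma (7.37% higher, against 2.62% of all genes). Of these 7, 3 were genes of the endoplasmic reticulum. At or below the floor on 6 or more arrays were 3 of the 95, against 1907 of all 14217 genes. The floor limits what such genes can show, so the shares are not on an equal footing. At an unadjusted p under 0.05, 24 were higher and 1 lower (25.3% and 1.05%, against 8.78% and 7.1% of all genes). The median log2 change of the 95 was 0.01, against 0.41 for the 8 members. Members and lists were both chosen with earlier results of these data known, so these comparisons are a description. The count of 7 that rose was 3 without control 5, and 4 without exposed animal 1, 2 or 4. It was 3 with the animal number as a block, 11 with the animals numbered 1 to 3 and 4 to 6 as a term and 12 with array weights.

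**Figure D4:**
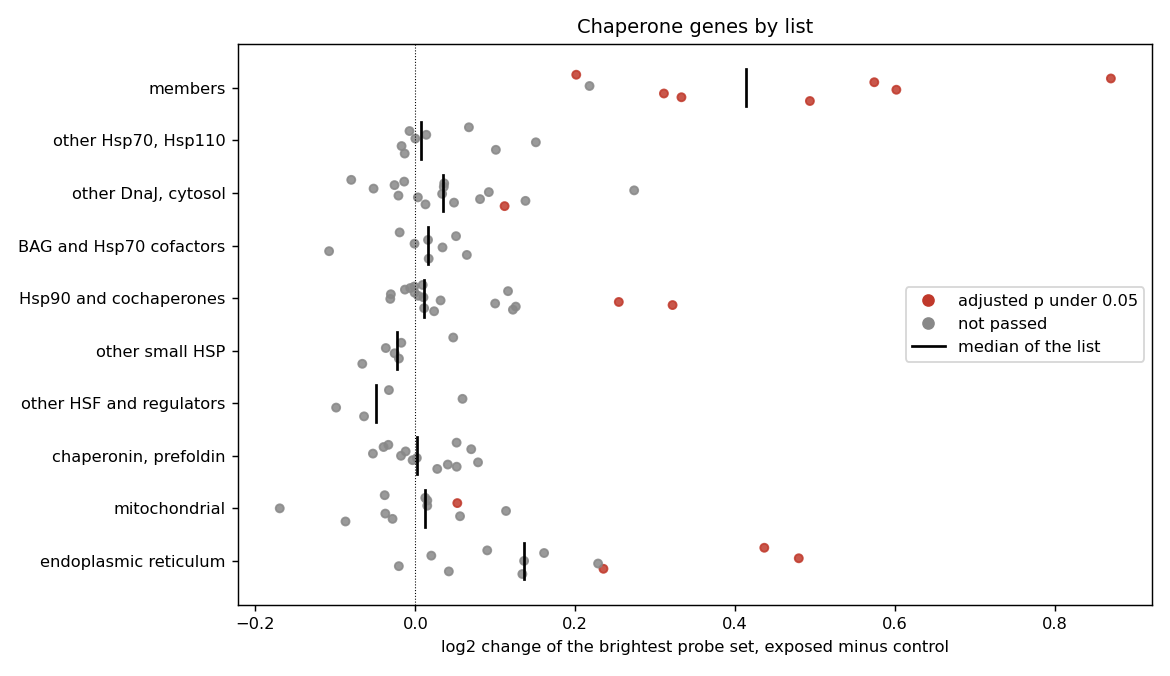
Log2 change of the brightest probe set, exposed minus control, for the 8 measured members and for further chaperone genes by list. Each point is a gene, red where the adjusted p was under 0.05, and the black line is the median of the list. The medians of the 8 cytosolic, nuclear and mitochondrial lists other than the members lie between -0.05 and 0.03, that of the endoplasmic reticulum at 0.14 and that of the members at 0.41.

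Among Hsp90 and its cochaperones 2 of 18 rose (11.1%, against 2.62% of all genes). At an unadjusted p under 0.05, 6 were higher (33.3%, against 8.78% of all genes). Chordc1, a zinc-binding partner of Hsp90, averaged 1901 ± 93.9 in the exposed group and 1524 ± 125 in the control group (SD, n = 6 each). Its increase was 1.25-fold (adjusted p = 0.0105), and the lowest exposed animal lay above the highest control. The other was Fkbp5, a cochaperone of the glucocorticoid receptor (log2 change 0.25 ± 0.05, adjusted p = 0.032). Ahsa1, which stimulates the ATPase of Hsp90, had the third smallest p of this list and a log2 change of 0.12 ± 0.03 (adjusted p = 0.0741).

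Of the 16 other cytosolic DnaJ genes 1 rose, Dnaja1, a type I partner of Hspa8, with 7279 ± 249 in the exposed group and 6736 ± 178 in the control group. This was a 1.08-fold change (adjusted p = 0.0471). Of the exposed animals 5 lay above all controls. The 1 that rose is 6.25% of this list, against 2.62% of all genes. At an unadjusted p under 0.05, 4 of the 16 were higher (25%, against 8.78% of all genes). Dnajb2 (log2 change 0.14 ± 0.04, adjusted p = 0.0967) and Dnajc21 (0.27 ± 0.09, adjusted p = 0.194) did not pass. Of the 8 other Hsp70 and Hsp110 genes 0 passed in limma, and 2 were higher at an unadjusted p under 0.05 (25%, against 8.78%). The smallest p was that of Hspa14 (log2 change 0.15 ± 0.05, adjusted p = 0.17). Hspa1l was below the floor on all 12 arrays, so it could show no change. Of the 8 further Hsp70 cofactors and BAG genes 0 passed, adjusted or not, and their changes ran from -0.11 for Bag4 to 0.06.

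Relatives of Hspb1, Cryab and Hsf1 did not pass. Of the 6 other small heat shock proteins measured 0 passed in limma, also at an unadjusted p under 0.05, with log2 changes between -0.07 and 0.05, where Hspb1 rose by 0.87. Hspb2 was at or below the floor on 7 of 12 arrays and Hspb3 on 1, which limits what their changes can show. Hspb6, the one with the smallest p, averaged 860.4 ± 28.3 in the exposed group and 883 ± 40.5 in the control group (adjusted p = 0.792). Of the 4 other genes of heat shock factors and their regulators 0 passed in limma, adjusted or not, and Hsf2bp was at or below the floor on 8 arrays. Hsbp1, which binds and restrains Hsf1, was at -0.06 ± 0.03 on the log2 scale (adjusted p = 0.44), and Hsf2 at -0.10 ± 0.05 (adjusted p = 0.443).

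The cytosolic chaperonin, which folds actin and tubulin, and prefoldin, which feeds it, had 0 of 13 genes that passed. At an unadjusted p under 0.05, 3 were higher (23.1%, against 8.78% of all genes), led by Cct5 (log2 change 0.08 ± 0.02, adjusted p = 0.119). In mitochondria 1 of 11 rose, the chaperonin Hspd1, at 6553 ± 45.9 in the exposed group and 6319.85 ± 105 in the control group. That is 1.04-fold (log2 change 0.05 ± 0.01, adjusted p = 0.0426), a small change with a narrow spread and no overlap between the groups. The 1 that rose is 9.09% of this list, against 2.62% of all genes. At an unadjusted p under 0.05, 2 of the 11 were higher and 1 lower (18.2% and 9.09%, against 8.78% and 7.1% of all genes). In the endoplasmic reticulum 3 of 11 rose, namely Hspa5, the Hsp70 of this compartment (1.39-fold, adjusted p = 0.00101), Dnajb11 (1.18-fold, adjusted p = 0.00306) and Sdf2l1 (1.35-fold, adjusted p = 0.0198). The 3 that rose are 27.3% of this list, against 2.62% of all genes. At an unadjusted p under 0.05, 7 of the 11 were higher (63.6%, against 8.78% of all genes). Of the 11 changes 10 were above 0, as were 7426 of those of the 14217 genes. In the promoter table, 19 of the 81 further chaperone genes it holds had a pair of inverted heat shock units, 3 of the 7 that rose (Chordc1, Dnaja1 and Hspd1) and 16 of the 74 that did not pass. A run of 3 units was in those 3 and in Cct4 and Hspe1, which did not pass. Of all promoters 15.9% held a pair and 0.798% a run. Hspd1 and Hspe1 had the same counts, 3 pairs and 2 runs each. Whether their windows overlap was not checked, so they may not be separate cases.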

How the data were processed

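Forebrain RNA of 12 rats, 6 per group, was measured on Affymetrix arrays. The authors deposited 1 linear intensity per probe set and array. Per the labels' protocols, RNA was taken with Trizol and an RNeasy cleanup and biotin-labelled as cRNA. Background correction, summarisation and normalization are not given in the sources used here. Array medians of the deposited intensities lay between 235 and 245, so no further normalization was applied. The number of arrays limits precision.

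Values under the 20th percentile (53.8) were set to it before taking log2. Each of 31042 probe sets, array controls left out, was fitted with limma 3.58.1 in R 4.3.3 (lmFit, eBayes with trend), with group as the only term. The Benjamini-Hochberg adjustment ran over all of them, with 0.05 as the threshold for a call. Changes are exposed minus control with the SE of the fit.

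Names come from the platform annotation (20826 probe sets with 1 symbol, 436 with several, 9780 with none), checked through Entrez IDs in the RefSeq table, with 68 unmatched and 0 changed. Genes take their brightest probe set. Correlations were tested with 100000 permutations of animals within groups. Named genes are the members, up to 3 genes with the smallest p per chaperone list, and the 4 genes most like each of 2 members. Endothelial and forebrain markers, markers outside the forebrain, genes at the floor, Cct4 and Hspe1 were named after their values were seen. Alternatives covered normalization, floor, filter, variance model, weights, covariates, block, probe set type and animals left out. The members and lists were chosen with earlier results of these data known.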

Additional observations from a re-analysis of the deposited data

Results flagged for a closer look

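Over 24 groups (12 probe sets, 6 animals in each group) the gap between the highest or the lowest animal and its neighbour was set against the range of the group, and 2 groups had a gap above the 95% critical value of Dixon's test. Chance gives such a gap in about 1 in 20 groups. At the dimmer Dnajb1 probe set, exposed animal 3 was lowest at 1304, the next animal being at 1633, a gap of 0.71 of the range on the log2 scale. At the brightest Dnajb5 probe set, control animal 5 was lowest at 1197, the next being at 1286, a gap of 0.757 of the range. Without control 5 the log2 change of that Dnajb5 probe set was 0.58 (adjusted p = 0.000391).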

How the results depend on the processing

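Hspb1, Hspa1a, Bag3, the brightest probe sets of Hsph1 and Dnajb1, and the 2 brighter ones of Dnajb5 kept their direction and their call in all 26 alternatives. Hsf1 did not pass in any of the 26 (adjusted p 0.0717 to 0.369). Cryab lost its call in 13 and the dimmest Dnajb5 probe set in 1, the replicate block (adjusted p = 0.0611). The dimmer Dnajb1 probe set passed in 4 and the dimmer Hsph1 one in 1, array weights (adjusted p = 0.0485). With 1 animal left out in turn, 8 to 9 of the 12 probe sets, 6 to 7 of the 8 genes and 3 to 8 of the 95 further chaperone genes rose, and 0 fell in each. Over all probe sets 451 to 622 rose and 103 to 182 fell, where 610 rose and 186 fell with 12 animals. Leaving out control 3, 5 or 6 gave 103, 112 or 117 lower probe sets, and leaving out exposed animal 1 gave 104. The lower count was 314 with array weights, 72 with the RNA quality covariate, 97 with the oligodendrocyte covariate and 82 without control 4 and exposed animals 3 and 5 together. Of the further chaperone genes 12 rose with array weights and 11 with the animals numbered 1 to 3 and 4 to 6 as a term. The causes were not tested. With the replicate block 359 probe sets rose and 76 fell, and 7 of the 12 probe sets, 6 of the 8 genes and 3 of the 95 further genes rose. Animals of the same number deviated together weakly (correlation -0.08 to 0.16 over the 6 numbers), and 3 of 12 correlated best with their own number, so the numbers were not taken as pairs. No detection call was among the values used, so how far Hspa1a, with a mean log2 intensity of 7.85, stands above background was not tested.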
